A study of Homo sapiens with 9 samples.

Results

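The 10 genes described here, regulators of apoptosis from the BCL2 family, were followed across RNA libraries of Raji, an established human B-lymphoma line derived from a Burkitt lymphoma. The 10 were listed by symbol, 4 of them anti-apoptotic (BCL2, BCL2L1, MCL1, BCL2A1), 4 BH3-only (BCL2L11, BMF, BBC3, PMAIP1) and 2 effectors (BAX, BAK1), and all 10 were found by identifier among the 15436 genes of the deposited table. Of these, 9 were abundant enough to test, among 11346 tested genes, and BAK1 was not. The 9 libraries fall into 3 groups of 3: cells given thymidine and nocodazole (Thy-Noc), cells given hydroxyurea (HU) and cells given the solvent DMSO. HU blocks ribonucleotide reductase, which supplies the building blocks of DNA. Thymidine in excess likewise slows replication, and nocodazole arrests mitosis by disrupting microtubules. All groups are cells of the Raji line, which carries Epstein-Barr virus. The sources used here give neither dose nor time. Whether replicates were separate cultures is not stated, so the p-values cover the spread between these samples alone, and that spread may be technical.

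Proteins of the BCL2 family decide whether the outer membrane of mitochondria is opened. BAX and BAK1 form the pores that let cytochrome c out and so start the caspases. Anti-apoptotic members hold BAX, BAK1 and the BH3-only proteins in check, and BH3-only proteins, which sense different kinds of damage, bind into the groove of the anti-apoptotic members or activate the effectors directly. In B cells, BCL2A1 is a known target of NF-kB and BCL2L11 (the protein BIM) limits the survival of lymphocytes. BBC3 encodes PUMA and PMAIP1 encodes NOXA, BH3-only proteins known to respond to cell stress. The libraries measure mRNA only, and much of the control of MCL1, BCL2L11 and BMF acts on the protein.

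BCL2A1 and BMF, the genes that passed the test in HU, lie on the same chromosome in different places. BCL2A1 (ENSG00000140379) lies on the minus strand of chr15:79960889-79971446, and BMF (ENSG00000104081) on the minus strand of chr15:40087890-40108892, in GRCh38 as annotated by GENCODE release 29. That release gives BCL2A1 2 transcripts and no overlapping gene, and gives BMF 10 transcripts and an antisense gene, BMF-AS1, whose reads cannot be told from those of BMF because the sources do not say whether counting used the strand. The 250 bases before each start are shown because these are the promoters of the 2 genes that passed. They come from RefSeq on GRCh38.p14, in the genes' own direction, from chr15:79971197-79971446 for BCL2A1 and chr15:40108880-40109129 for BMF, with capitals marking matches, on either strand, to the NF-kB pattern of GGG, any 5 bases and CC. RefSeq and GENCODE place the starts differently, and the BCL2A1 window lies inside the GENCODE gene, at its upstream end.
BCL2A1: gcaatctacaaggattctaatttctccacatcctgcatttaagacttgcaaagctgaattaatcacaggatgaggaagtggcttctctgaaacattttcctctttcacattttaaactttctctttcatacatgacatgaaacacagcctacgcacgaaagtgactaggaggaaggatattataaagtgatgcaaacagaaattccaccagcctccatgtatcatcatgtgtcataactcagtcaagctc
BMF: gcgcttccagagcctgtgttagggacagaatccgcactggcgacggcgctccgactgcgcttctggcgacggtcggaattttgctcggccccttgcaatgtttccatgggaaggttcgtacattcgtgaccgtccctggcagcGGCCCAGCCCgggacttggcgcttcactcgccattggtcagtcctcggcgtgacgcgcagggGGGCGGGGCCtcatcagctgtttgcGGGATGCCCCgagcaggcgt
The BCL2A1 window was 38.8% G and C and held 0 matches, while the BMF window was 65.2% G and C and held 3. That pattern occurs in 53.7% of 27305 RefSeq windows of the same length. Neither window held the FOXO pattern TGTTTAC, the AP-1 pattern TGANTCA or the E-box CACGTG, which occur in 2.98%, 6.6% and 6.49% of windows. Such matches describe letters only, and say nothing of whether a factor binds.

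The libraries held between 74940755 and 110485145 summed counts. All 7 B-cell markers checked against the label were abundant enough to test, and their summed level ran from 1643 to 2602 CPM (counts scaled to library size, with edgeR's TMM factors) in Thy-Noc, from 1644 to 2366 CPM in HU and from 1864 to 2317 CPM in DMSO. Of 12 markers of other cell types, 3 had a row (LYZ, ITGAM and COL1A1), and the defining T-cell, monocyte and erythroid genes CD3D, CD14 and HBB had none. Their sum ran from 2.73 to 6.16 CPM in Thy-Noc, from 10.2 to 16.8 CPM in HU and from 2.14 to 4.79 CPM in DMSO. Mitochondrial transcripts took 1.03% to 1.54% of counts in Thy-Noc, 1.45% to 1.82% in HU and 1.0% to 1.08% in DMSO. Both measures were higher in every HU library than in any DMSO library, and their part in the results below was not tested. Many genes of this table jump between replicates, and the sources do not say whether each value covers all of a gene's transcripts, so a CPM below may not stand for the whole mRNA of its gene. At least 10-fold between libraries of 1 group (after adding 0.5 CPM) was seen for 16.2% of all tested genes and for 2 of the 9 tested members, MCL1 and BBC3.

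**Figure D1:**
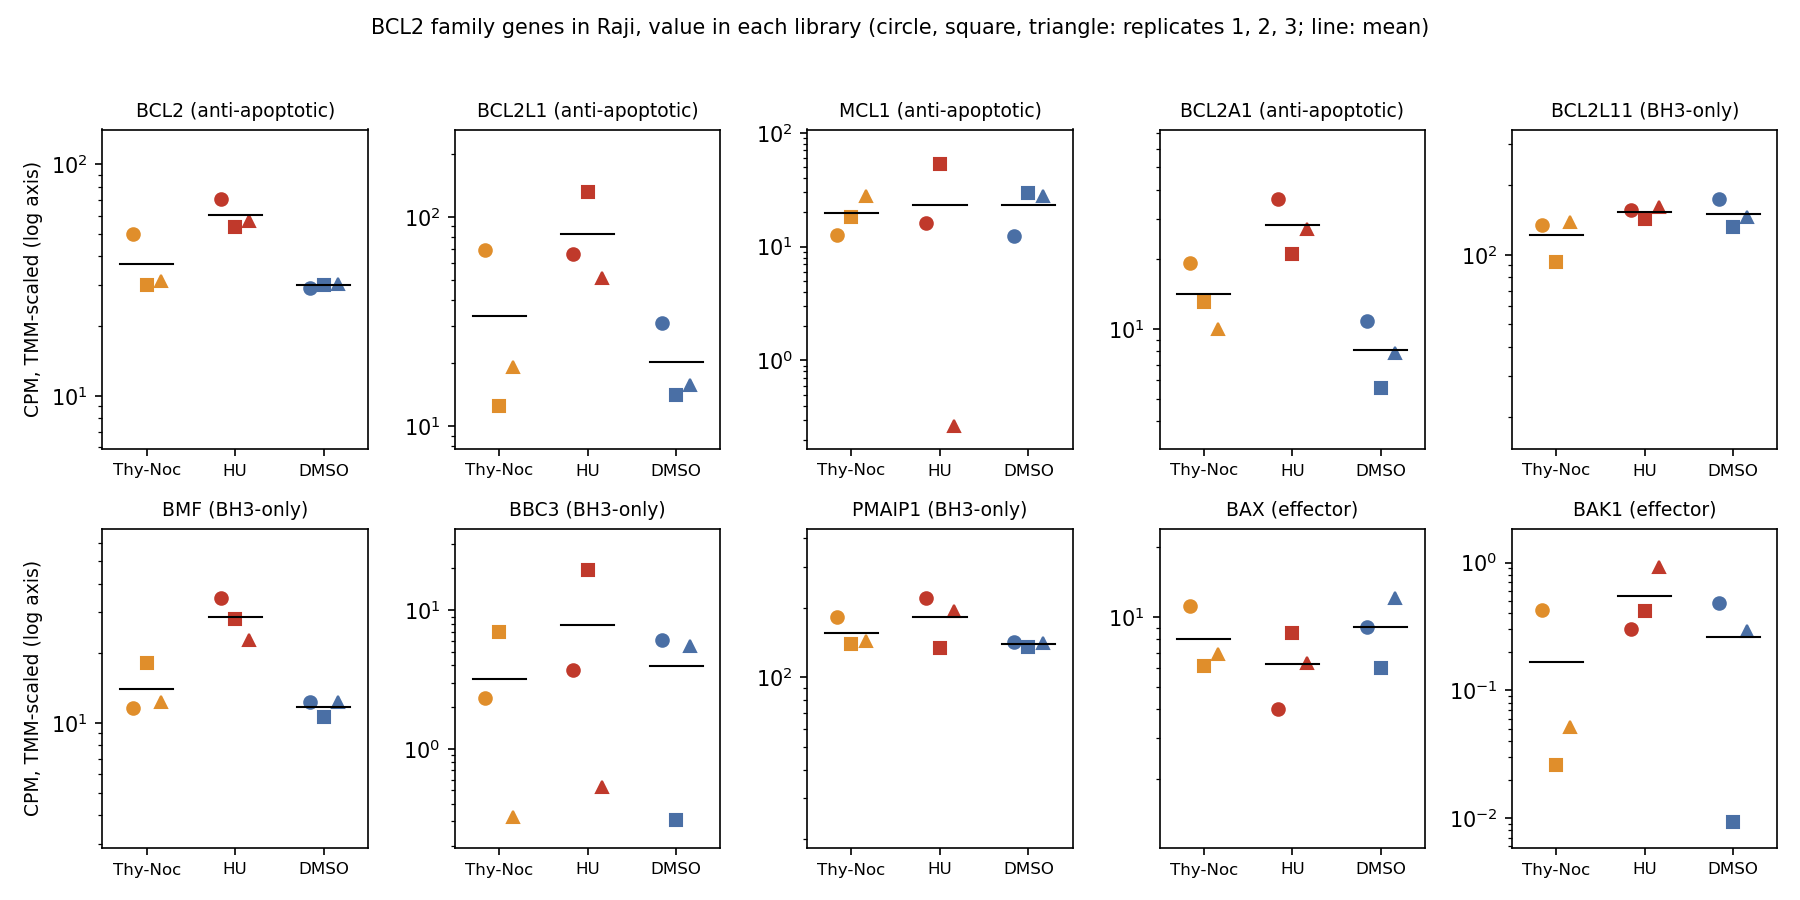
Level of each of the 10 genes in CPM (log axis) in every library, by group, with replicates 1, 2 and 3 as circle, square and triangle and the group mean as a line. BCL2, BCL2L1, BCL2A1 and BMF have all 3 HU libraries above all 3 DMSO libraries, MCL1 and BBC3 scatter widely within groups, and BAK1 is below 1 CPM in every library.

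The comparison of HU with DMSO addresses how these genes differed in lymphoma cells given HU, and replication stress itself was not measured. BCL2A1 and BMF were higher in HU, by 3.49-fold and 2.44-fold, and narrowly passed the threshold (edgeR quasi-likelihood adjusted p 0.0469 and 0.0387). These calls held in 9 (BCL2A1) and 10 (BMF) of 20 alternative settings. BCL2 was 2.01-fold higher and just missed the threshold, and BCL2L1 was higher in every HU library with a wide spread. BCL2L11 differed by less than its spread. In bulk RNA, a shift in the share of cells at a stage of the cell cycle cannot be told apart from a change of RNA per cell.

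Among the anti-apoptotic members, BCL2A1, which encodes the short-lived guardian BFL-1, stood at 36.4, 21.0 and 27.1 CPM in the 3 HU libraries, against 10.8, 5.54 and 7.90 CPM in DMSO. The lowest HU library was well above the highest DMSO library, so the groups did not overlap. The deposited counts behind these levels were 1624 to 2875 in HU and 594 to 851 in DMSO, so counting error was small beside the spread between libraries. The log2 fold change was 1.80 ± 0.37 (SE), with an adjusted p of 0.0469 (edgeR, quasi-likelihood F test, Benjamini-Hochberg over all tested genes).

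BCL2, the founding guardian of the family, stood at 70.7, 53.5 and 57.0 CPM in HU, against 29.2, 30.2 and 30.5 CPM in DMSO. Its DMSO libraries lay within 1.04-fold of each other, and all 3 HU libraries were above them. The log2 fold change was 1.01 ± 0.22 (95% interval 0.49 to 1.53), and the adjusted p from edgeR's quasi-likelihood test was 0.0542. It passed in 7 of 20 alternative settings, among them DESeq2 (adjusted p 0.000381) and limma (0.0425 to 0.0439). In this comparison DESeq2 called 2135 of 10932 genes, where edgeR called 404 of 11346, so a pass in DESeq2 is much more common. BCL2 lies on the minus strand of chr18:63123346-63320128 and holds or overlaps 2 annotated non-coding genes.

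BCL2L1, which encodes BCL-XL, stood at 66.3, 131 and 51.3 CPM in HU, against 31.1, 14.1 and 15.7 CPM in DMSO. The groups did not overlap, but HU replicate 2 was 2.55-fold above HU replicate 3, and DMSO replicate 1 was 2.21-fold above DMSO replicate 2. Its log2 fold change of 2.03 ± 0.73 missed the threshold (adjusted p 0.172 in edgeR's quasi-likelihood test), with a 95% interval of 0.31 to 3.75. Of 20 alternatives, 1 called it, DESeq2 (adjusted p 0.0342), which called 2135 of 10932 genes in this comparison. The gene lies at chr20:31664452-31723989 on the minus strand, opposite the antisense gene ABALON.

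MCL1, a guardian with a very short-lived protein, was too scattered to compare. Its level was 16.0, 53.5 and 0.27 CPM in HU, against 12.5, 29.3 and 27.9 CPM in DMSO. HU replicate 3 held 28 counts where HU replicate 2 held 4127, and the HU values span the DMSO values on both sides. The log2 fold change was 0.00 ± 1.29, with a 95% interval of −3.03 to 3.04 and an edgeR quasi-likelihood adjusted p of 1.0. Without HU replicate 3 the log2 fold change was 0.59, and without HU replicate 2 it was −1.51.

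Among the BH3-only members, BMF, which binds the myosin V motor complex in resting cells and is released under stress, stood at 34.6, 28.1 and 22.9 CPM in HU, against 12.3, 10.6 and 12.3 CPM in DMSO. All HU libraries were above all DMSO libraries, with the HU libraries spread over 1.51-fold and the DMSO libraries over 1.16-fold. The log2 fold change was 1.28 ± 0.24, and the adjusted p from edgeR's quasi-likelihood test was 0.0387.

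BCL2L11, the gene of BIM, stood at 156, 142 and 161 CPM in HU, against 174, 132 and 145 CPM in DMSO. The groups overlapped throughout. Its log2 fold change was 0.02 ± 0.18 (edgeR quasi-likelihood adjusted p 0.966). The 95% interval of −0.39 to 0.44 on the log2 scale is 0.76 to 1.36 as a fold, which leaves room for a fall as well as a rise. GENCODE gives BCL2L11 25 transcripts, the most of the 10 genes, and total counts do not separate them.

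PMAIP1, the gene of NOXA, which mainly binds MCL1 and BFL-1, stood at 220.1, 133 and 193 CPM in HU, against 142, 136 and 141 CPM in DMSO. HU replicates 1 and 3 were above every DMSO library, and HU replicate 2 was below them all. In log2 terms the difference was 0.39 ± 0.19, and the adjusted p from edgeR's quasi-likelihood test was 0.31. BBC3, the gene of PUMA, stood at 3.68, 19.4 and 0.53 CPM in HU, against 6.07, 0.31 and 5.54 CPM in DMSO. Its libraries of 1 group differed by up to 36.4-fold, and the log2 fold change of 0.99 ± 1.56 carries no direction (edgeR quasi-likelihood adjusted p 0.81, 95% interval −2.67 to 4.64).

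Of the effectors, BAX stood at 3.99, 8.50 and 6.30 CPM in HU, against 9.03, 6.02 and 12.1 CPM in DMSO. The groups overlapped, and the log2 fold change was −0.53 ± 0.40 (edgeR quasi-likelihood adjusted p 0.515). BAK1 stood at 0.30, 0.41 and 0.92 CPM in HU, against 0.48, 0.01 and 0.29 CPM in DMSO. Its count of 1 in DMSO replicate 2 is the lowest value that the table holds for any gene, its DMSO counts ran from 1 to 38, and its highest count was 97 in HU. Without the filter BAK1 had a log2 fold change of 1.11 in HU against DMSO (edgeR adjusted p 0.727), −0.64 in Thy-Noc against DMSO (1.0) and −1.75 in Thy-Noc against HU (0.578). BAK1 has 2 named pseudogenes, BAK1P1 and BAK1P2, and how reads were shared with them is not stated.

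Counted together, 2 of 9 tested members were higher past the threshold in HU and 0 were lower, against 2.0% of all tested genes higher, 1.56% lower and 3.56% in either direction. At an unadjusted p under 0.05, 4 members were higher and 0 lower, against 11.1% of all tested genes higher and 21.2% in either direction. Of the 9, 4 had all 3 HU libraries above all 3 DMSO libraries, where 15.5% of all tested genes did, and 0 had them all below, where 15.3% did. The median log2 fold change was 0.99 over the 9 tested members and 0.02 over all tested genes. That 0.99 is the value of the unsteady BBC3 itself, and over the 20 alternatives the members' median ran from 0.36 to 1.05, and it was 0.45 when DMSO replicate 2 was left out and 0.57 when HU replicate 2 was. With total-count scaling the median of all tested genes was 0.12, and 72.7% of all calls were higher in HU, where 56.2% were with TMM. BCL2, BCL2A1 and BMF were then called, all higher, among 373 of 11346 tested genes called, 271 of them higher. The median was 1.41 over the 4 anti-apoptotic members and 0.69 over the 4 BH3-only members, and both figures include the unstable MCL1 or BBC3.

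BCL2A1 passed in 9 of 20 alternative settings and BMF in 10. Both calls ended with no filter on low values, with a block for the replicate number and with only the 6 HU and DMSO libraries in the fit. Leaving out any 1 of the 6 HU and DMSO libraries ended both calls, with adjusted p of 0.0628 to 0.144 for BCL2A1 and 0.0699 to 0.137 for BMF in edgeR's quasi-likelihood test, and log2 fold changes of 1.58 to 2.07 and 1.13 to 1.42. Leaving out Thy-Noc replicate 3, which is in neither group, also ended both (0.0616 and 0.0597), and leaving out Thy-Noc replicate 2 ended that of BCL2A1 (0.0719).

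**Figure D2:**
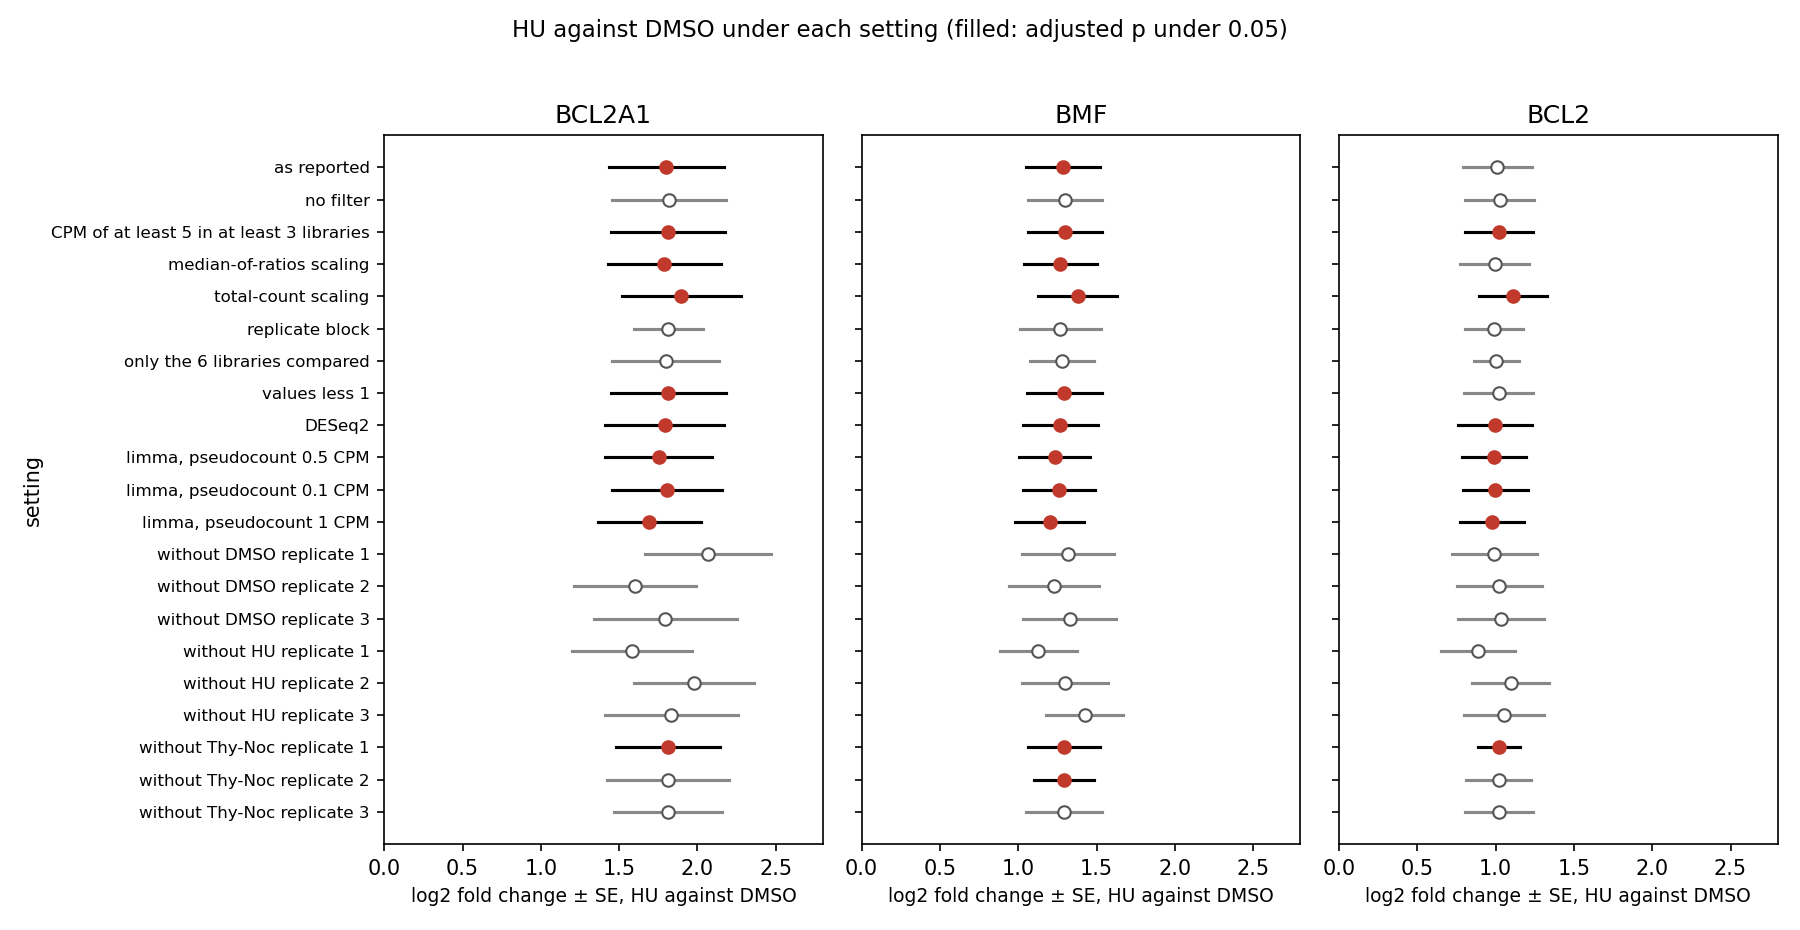
Log2 fold change ± SE of BCL2A1, BMF and BCL2 in HU against DMSO as reported and under 20 alternative settings, filled where the adjusted p is under 0.05. The BCL2A1 values lie between 1.58 and 2.07, those of BMF between 1.13 and 1.42 and those of BCL2 between 0.89 and 1.11, while the fill changes from setting to setting.

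Ratios of 2 genes within a library do not depend on how libraries are scaled. The 5 pairs below were chosen with the genes' values known and leave out the unsteady MCL1 and BBC3, so they describe the same differences on another scale. As BCL2L11 differed by 0.02, a ratio over it mostly repeats the other gene's own difference. BCL2A1 over BCL2L11 had a log2 ratio of deposited counts of −2.48 ± 0.33 in HU and −4.26 ± 0.29 in DMSO (mean ± SD, n = 3 each), a difference of 1.79. The HU libraries lay between −2.76 and −2.10 and the DMSO libraries between −4.57 and −4.01, with no overlap. BCL2 over BCL2L11 was −1.35 ± 0.18 in HU and −2.32 ± 0.23 in DMSO, and BCL2L1 over BCL2L11 was −1.0 ± 0.79 in HU and −2.98 ± 0.43 in DMSO (mean ± SD, n = 3 each). BCL2A1 over PMAIP1 was −2.70 ± 0.12 in HU and −4.16 ± 0.45 in DMSO. BCL2A1 over BMF was −0.03 ± 0.34 in HU and −0.59 ± 0.38 in DMSO (mean ± SD, n = 3 each), and there the groups overlapped. In Thy-Noc, BCL2A1 over BCL2L11 was −3.15 ± 0.57 and BCL2 over BCL2L11 −1.73 ± 0.37, with means between those of HU and DMSO. The Thy-Noc means of BCL2L1 over BCL2L11 (−2.24 ± 1.11) and BCL2A1 over PMAIP1 (−3.51 ± 0.31) also lay between. That of BCL2A1 over BMF (−0.01 ± 0.66) did not, and was close to the HU mean. The ratios compare libraries and not the amounts of 2 proteins, and they were not tested.

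**Figure D3:**
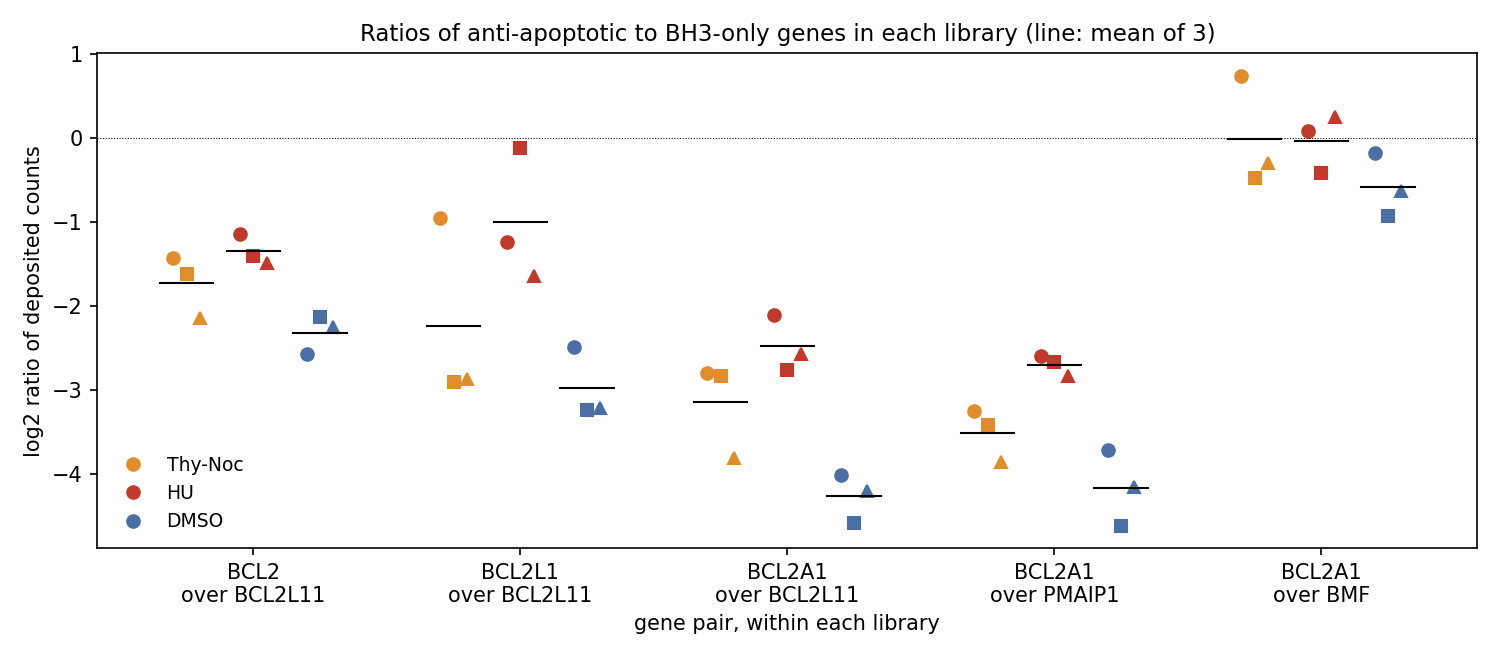
Log2 ratio of the deposited counts of an anti-apoptotic to a BH3-only gene in each library, with group means as lines and replicates 1, 2 and 3 as circle, square and triangle. BCL2A1 over BCL2L11 lies between −2.76 and −2.10 in HU and between −4.57 and −4.01 in DMSO, and BCL2A1 over BMF overlaps between the groups.

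The comparison of Thy-Noc with DMSO asks how the same genes differed in cells given thymidine and nocodazole, where arrest itself was not measured. It shares its DMSO libraries with the comparison above. By edgeR's quasi-likelihood test 0 of 9 members passed in either direction, 0 had an unadjusted p under 0.05, and DESeq2 and limma also called 0. Over all tested genes 0.0353% passed, 0.0264% higher and 0.00881% lower, so few genes of any kind were called in this comparison. An unadjusted p under 0.05 was found for 4.49% of all tested genes, with 2.45% higher. No member had its 3 Thy-Noc libraries all above or all below DMSO, where 5.18% and 4.79% of all tested genes did.

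BCL2A1 stood at 19.3, 13.1 and 9.96 CPM in Thy-Noc against 10.8, 5.54 and 7.90 CPM in DMSO. The lowest Thy-Noc library fell among the DMSO libraries, and the log2 fold change was 0.80 ± 0.36 (95% interval −0.03 to 1.64, unadjusted p 0.0574 in edgeR's quasi-likelihood test, adjusted p 1.0). BMF stood at 11.6, 18.2 and 12.3 CPM in Thy-Noc, where replicates 1 and 3 were close to the DMSO level (0.26 ± 0.23, adjusted p 1.0 by the same test).

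BCL2 stood at 49.99, 30.2 and 31.4 CPM in Thy-Noc, with replicates 2 and 3 close to the DMSO level and replicate 1 above it. BCL2L1 stood at 69.2, 12.4 and 19.1 CPM, and PMAIP1 at 183, 139.9 and 144 CPM, each again with replicate 1 highest. Thy-Noc replicate 1 was the highest of its group for 5 of the 9 tested members, against 33.5% of all tested genes. Without it the log2 fold change of BCL2L1 against DMSO was −0.36, where it was 0.73 ± 0.71 with it, and that of BCL2 was 0.04, where it was 0.31 ± 0.22 with it.

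BCL2L11 stood at 134, 93.1 and 139 CPM in Thy-Noc, with a log2 fold change of −0.30 ± 0.18 against DMSO. MCL1 stood at 12.6, 18.4 and 27.7 CPM, within its DMSO range, and BBC3 at 2.32, 6.96 and 0.32 CPM. BAX stood at 11.1, 6.14 and 6.89 CPM, within its DMSO range, and BAK1 at 0.42, 0.03 and 0.05 CPM. All adjusted p of the 9 tested members rounded to 1.0 in edgeR's quasi-likelihood test.

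**Figure D4:**
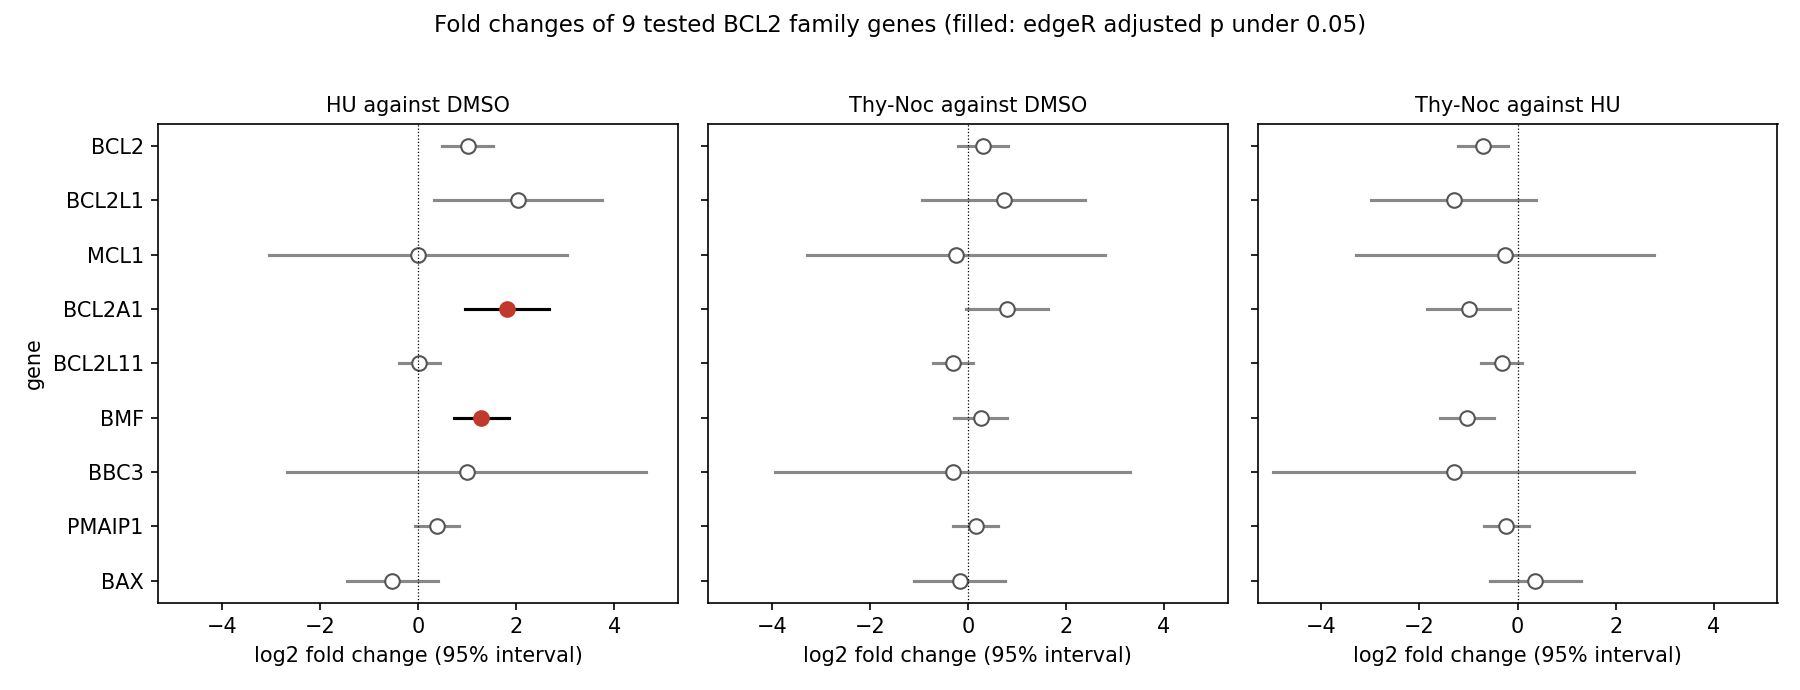
Log2 fold changes of the 9 tested genes with 95% intervals in the 3 comparisons, filled where edgeR's adjusted p is under 0.05. Filled points are BCL2A1 (1.80) and BMF (1.28) in HU against DMSO, and the intervals of MCL1 and BBC3 run over several log2 units in each comparison.

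The direct comparison of Thy-Noc with HU tests whether the 2 treatments differed. By edgeR's quasi-likelihood test 0 of 9 members passed and 3 had an unadjusted p under 0.05, all lower in Thy-Noc. DESeq2 called 2, BMF (adjusted p 0.000463) and BCL2 (0.0272), and limma called 0. DESeq2 called far more genes of every kind here, 1826 of 10932, so its 2 calls do not set the members apart. Over all tested genes, edgeR called 1.75%, with 1.06% higher and 0.696% lower in Thy-Noc. An unadjusted p under 0.05 was found for 19.4%, with 9.34% higher. Of the genes edgeR called, 60.3% were higher in Thy-Noc with TMM and 29.3% with total-count scaling, which moved the median of all tested genes to −0.16.

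BMF came nearest, at a mean of 14.0 ± 3.62 CPM in Thy-Noc and 28.5 ± 5.84 CPM in HU (SD, n = 3 each). Its log2 fold change was −1.03 ± 0.24, and the adjusted p from edgeR's quasi-likelihood test was 0.0796. BCL2A1 averaged 14.1 ± 4.75 CPM in Thy-Noc and 28.2 ± 7.72 CPM in HU (−1.0 ± 0.36, adjusted p 0.194 by the same edgeR test). BCL2 averaged 37.2 ± 11.1 CPM in Thy-Noc and 60.4 ± 9.09 CPM in HU (−0.70 ± 0.22, edgeR quasi-likelihood adjusted p 0.151). For these 3 genes and BCL2L11 every Thy-Noc library was below every HU library, as for 12.9% of all tested genes. For BCL2A1 the difference between Thy-Noc and HU passed in 0 of 20 alternatives, and for BMF in 1, DESeq2.

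Ordered by mean level, 5 of the 9 tested members ran HU, then Thy-Noc, then DMSO from high to low, namely BCL2, BCL2L1, BCL2A1, BMF and PMAIP1. That order holds for 22.3% of all tested genes. Within it, the Thy-Noc and DMSO libraries of all 5 genes overlapped, so the order of those neighbours is not settled. HU and Thy-Noc overlapped for BCL2L1 and PMAIP1. BCL2L11, MCL1 and BBC3 had the order HU, DMSO, Thy-Noc, and BAX the order DMSO, Thy-Noc, HU, all with overlap between HU and DMSO.

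The other lists of death pathway genes were tested with edgeR alone. In HU against DMSO 3.56% of all tested genes passed and 21.2% had an unadjusted p under 0.05, so lists of this length can hold few calls or none. Of the other BCL2 family genes, 10 of 14 had a row and 9 were tested, with 0 past edgeR's threshold in any of the 3 comparisons, 1 at an unadjusted p under 0.05 in HU against DMSO, and a median log2 fold change of 0.44 in HU against DMSO. BIK, a BH3-only gene, stood at 11.6 ± 1.19 CPM in HU and 7.73 ± 0.30 CPM in DMSO (0.58 ± 0.24, edgeR quasi-likelihood adjusted p 0.224), and BID, the BH3-only gene that links death receptors to mitochondria, had a log2 fold change of −0.11 ± 0.13.

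Of 15 tested genes of the apoptosome, caspases and mitochondrial release, 0 passed by edgeR in HU against DMSO, with a median log2 fold change of 0.00. There 2 had an unadjusted p under 0.05 by edgeR, 1 higher (APAF1) and 1 lower (CASP2). CASP2 averaged 2.31 ± 0.89 CPM in HU and 48.4 ± 62.1 CPM in DMSO (SD, n = 3 each), and the groups overlapped. APAF1, the scaffold of the apoptosome, averaged 34.5 ± 19.8 CPM in Thy-Noc, 27.1 ± 2.43 CPM in HU and 12.4 ± 4.77 CPM in DMSO (SD, n = 3 each). Its log2 fold changes against DMSO were 1.47 ± 0.44 in Thy-Noc and 1.13 ± 0.44 in HU, and edgeR's adjusted p were 1.0 and 0.198.

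Of 12 tested genes of the inhibitor-of-apoptosis proteins and the death receptor arm, 0 passed by edgeR and 3 had an unadjusted p under 0.05 in HU against DMSO, near the 21.2% of all tested genes. TNFRSF10B, the death receptor DR5, came nearest, at 120 ± 5.58 CPM in HU and 71.8 ± 12.1 CPM in DMSO (0.73 ± 0.16, edgeR quasi-likelihood adjusted p 0.0522). BIRC5, the gene of survivin, an inhibitor of apoptosis that also acts in mitosis, averaged 44.0 ± 17.9 CPM in HU and 81.5 ± 22.1 CPM in DMSO (−0.89 ± 0.32, adjusted p 0.177 by the same edgeR test). Among 6 partners and turnover factors 0 passed by edgeR, and 0 had an unadjusted p under 0.05 in HU against DMSO. DYNLL2, the light chain that tethers BMF, had a log2 fold change of −0.01 ± 0.12 in HU against DMSO, and HUWE1, a ubiquitin ligase of MCL1, of −0.02 ± 0.13.

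Of 11 tested transcription factors known to act on members, 0 passed by edgeR in any comparison and 3 had an unadjusted p under 0.05 in HU against DMSO, all higher, where 11.1% of all tested genes were. NFKB2, a subunit of NF-kB, averaged 263 ± 50.2 CPM in HU and 84.8 ± 72.4 CPM in DMSO (1.63 ± 0.65, edgeR quasi-likelihood adjusted p 0.209). The other tested NF-kB subunits, named after their values were seen, had log2 fold changes of −1.0 ± 0.51 (NFKB1), −0.71 ± 1.598 (RELA) and −0.06 ± 1.28 (REL), and RELB was too low to test. FOXO3, which activates BCL2L11 and BMF in several cell types, had 0.52 ± 0.17 (adjusted p 0.141 by the same edgeR test). In HU against DMSO, the lists of partners, transcription factors, apoptosome genes and death receptor genes had medians between −0.06 and 0.00, close to the 0.02 of all tested genes.

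Over the 9 libraries, the genes whose log2 levels followed BCL2A1 most closely among 8131 genes with a mean of at least 5 CPM were SYT11 (Pearson r 0.98), TMEM123 (0.97) and RIT1 (0.96). Those nearest to BMF were SPIB (0.98), a B-cell transcription factor, TMCO3 (0.97) and TNF (0.97), an inflammatory cytokine. SPIB averaged 119 CPM in Thy-Noc, 264 CPM in HU and 93.0 CPM in DMSO, and TNF 2.56 CPM in Thy-Noc, 10.6 CPM in HU and 2.43 CPM in DMSO. These correlations describe 9 libraries of 3 groups that share the same contrast, and carry no test.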

How the data were processed

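The 9 Raji libraries were stranded mRNA libraries, per the labels' protocols. For the authors' processing, FastQC, Trim Galore, STAR, DESeq2 and the build GRCh38 appear in the submitters' processing notes, with no role or version. What counted the reads, on which annotation and strand, is not stated there. The deposited values are called CPM but are whole numbers with unequal totals and a lowest value of 1, so the deposited values were treated as estimated counts. Genes with at least 1 CPM in at least 3 libraries were kept (11346 of 15436), TMM-scaled and tested by edgeR 4.0.16 in R 4.3.3 with its two-sided quasi-likelihood test on all 9 libraries. P-values were Benjamini-Hochberg adjusted over all tested genes, and 0.05 was the threshold. The standard error came from the fold change and its F statistic. Alternatives were other filters, scalings, a block for the replicate number, fits of just the 6 libraries compared, values less 1, DESeq2 1.42.0, limma 3.58.1 on log2(CPM + 0.5, 0.1 or 1) and leaving out each library. Only the edgeR step was tried on simulated counts with known changes, for HU against DMSO and Thy-Noc against DMSO. Libraries of 1 group differed far beyond counting noise, so none was counted as a repeat of another. Symbols came from a gene name table that matched 15393 identifiers. The members, lists and tests were chosen with earlier results of these data known. Named genes are the 10 members, called list genes, up to 2 uncalled ones per list given as values, and the 3 genes closest to each called member.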

Additional observations from a re-analysis of the deposited data

How the results depend on the processing

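Of 243 member fold changes with 1 library left out, 215 kept their direction and their side of the threshold, 12 reversed, 15 lost the call and 1 gained it. Of 297 under other alternatives, 270 kept both, 12 reversed, 6 lost the call and 9 gained it. In HU against DMSO, 2 members and 404 genes were called as reported. The counts were 0 members and 220 genes with no filter, 0 and 9 under a replicate block, 0 and 51 with only the 6 libraries compared, and 4 and 2135 with DESeq2. Leaving out 1 library gave 0 to 3 members and 21 to 318 genes. In Thy-Noc against DMSO, where 4 genes were called, the replicate block gave 0, DESeq2 179, limma 12, 7 and 12 with 0.5, 0.1 and 1 CPM added, and leaving out 1 library 5 to 13. In Thy-Noc against HU, with 0 members and 199 genes called, DESeq2 called 2 members and 1826 genes. There no filter gave 64 genes, the stricter filter of 5 CPM 313, the replicate block 0, the 6 libraries 18, limma 326, 311 and 346, and leaving out 1 library 1 to 103. No sign of pairing by replicate number was seen: deviations of same-numbered libraries correlated at −0.04 to 0.04, and those of other-numbered libraries at −0.05 to 0.03. Of 9 libraries, 4 correlated best with their own number. With many genes jumping between replicates, a weak pairing could be missed. With the replicate block the median log2 fold change of the members was 0.36, and the adjusted p in HU against DMSO was 0.0651 for BCL2A1 and 0.0996 for BMF. With no filter these were 0.0634 and 0.0506, and with only the 6 libraries 0.0774 and 0.0680. Over all 20 alternatives they ran from 4.84e-05 to 0.144 for BCL2A1 and from 3.87e-06 to 0.137 for BMF.

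Reversals fell on fold changes that were not called. MCL1 in HU against DMSO was −0.022 with median-of-ratios scaling and −0.022 with DESeq2, −0.29 with the replicate block, −8.77e-05 with the 6 libraries, −1.33, −1.68 and −1.11 with limma, and −1.51 to 0.59 with 1 library left out. MCL1 in Thy-Noc against HU was 0.14 with the block, 1.11, 1.45 and 0.89 with limma, and −0.83 to 1.26 with 1 library left out. BBC3 in HU against DMSO was −0.84 with the block and −0.91 to 1.54 with 1 library left out. With 1 library left out, BBC3 ran from −1.59 to 0.23 in Thy-Noc against DMSO and from −2.58 to 0.60 in Thy-Noc against HU, BCL2L1 from −0.36 to 1.18 and BAX from −0.47 to 0.10 in Thy-Noc against DMSO, and BCL2L11 from −0.053 to 0.14 in HU against DMSO. Fewer samples enter where libraries are left out, and for the other changes the cause was not tested. BAK1 could be tested only without the filter.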
